A study of Homo sapiens with 12 samples.

Results

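The 68 genes described here encode the secreted and membrane-bound cues that steer growing axons, and the receptors that read them. They comprise 35 ligands (20 semaphorins, 8 ephrins, 3 SLITs and 4 netrins) and 33 receptors (9 plexins, 2 neuropilins, 14 EPH receptors, 4 ROBO receptors and 4 UNC5 receptors). Members were chosen by gene symbol and protein-coding biotype, from 58735 genes in the count table, of which 19951 are protein-coding. RNA came from the human line C4.2B, a descendant of LNCaP that models castration-resistant prostate cancer. Cells of the DMSO arm received vehicle throughout, and cells of the AKTi arm received vehicle for 6 days and then the AKT inhibitor ipatasertib at 0.25 μM for 24 hours. In the EZH2i arm the EZH2 inhibitor tazemetostat was present at 1 μM for 6 days and for the final 24 hours, and in the combination arm ipatasertib at 0.25 μM was added to tazemetostat for those 24 hours. Every arm, DMSO included, was switched to medium with 10% charcoal-stripped FBS, which is poor in steroid hormones, when the final dosing began. Because exposure to tazemetostat began 6 days earlier, the identity of the agent and the length of exposure cannot be told apart when AKTi and EZH2i are set side by side. Each arm holds 3 libraries, A, B and C, of plates of the same line, so the p-values measure the spread between these plates.

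Semaphorins bind plexins, and the secreted class 3 semaphorins mostly do so through a neuropilin co-receptor, whereupon the plexin acts on small GTPases and the cytoskeleton. Ephrins are tethered to the cell surface and activate EPH receptor tyrosine kinases on a neighbouring cell, with signals passing in either direction. SLITs are secreted ligands of ROBO receptors and commonly repel, whereas netrins act through DCC, NEO1 and the UNC5 receptors, and the same families shape epithelial contacts, migration and blood vessels outside the nervous system. EZH2 is the catalytic subunit of PRC2, which places the repressive mark H3K27me3, and genes of neural development are among its known targets. AKT is a kinase that promotes growth and survival.

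Library totals ranged from 14133755 to 22276417 counts. KLK3 (PSA), a secreted product of luminal prostate cells, was present in every arm, with mean levels, in counts scaled by library size (CPM), of 1372 in DMSO, 2342 with AKTi, 2890 with EZH2i and 3941 in the combination. Of the 10 luminal markers, 8 were higher and 2 lower with AKTi than in DMSO, 7 and 1 with EZH2i and 8 and 2 in the combination. The 2 lower in the combination were HOXB13, at 424 CPM in DMSO and 294 CPM there, and EPCAM, at 127 and 103.5 CPM. The 5 basal epithelial markers summed to at most 1.10 CPM in any library, with KRT5 at 0 in all 12. The 11 neuronal and neuroendocrine markers summed to 7.05 to 7.47 CPM in DMSO and 12.26 to 15 CPM in the combination. Of the 3 tested, 2 were higher and 0 lower in the combination. The 2 were ENO2, at 4.90 CPM in DMSO and 8.75 CPM there, and TUBB3, at 0.380 and 1.99 CPM. The neuroendocrine granule protein CHGA, which did not pass the filter, averaged 0.290 CPM in DMSO and 0.0586 CPM in the combination. Fibroblast and smooth muscle markers summed to 8.2 to 10.8 CPM in DMSO and 21.5 to 21.6 CPM with EZH2i, most of it COL1A1. The part of these differences in the results below was not tested. In bulk RNA, more cells with a transcript and more transcript per cell cannot be told apart.

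In DMSO the families were unevenly expressed. Levels are compared between genes only on the length-scaled RPKM scale (CPM divided by gene length in kilobases). In DMSO the highest member was PLXNB2, a plexin that responds to class 4 semaphorins, with a level of 40.8 ± 0.82 RPKM (SD, n = 3), followed by the ephrin EFNA5 with 28.6 ± 1.5 RPKM, the ephrin EFNA1 with 22.7 ± 1.6 RPKM and the secreted semaphorin SEMA3C with 18.6 ± 0.14 RPKM. EFNA4 (12.6 ± 0.86 RPKM), EPHB4 (11.95 ± 0.47 RPKM), EPHA3 (11.3 ± 0.43 RPKM) and EFNA3 (11.03 ± 0.75 RPKM) came next, and neighbours in that order differed by less than the sum of their SDs. In contrast, the 3 SLITs together reached only 0.0519 RPKM and the 4 netrins 0.424 RPKM. Of the 68 members, 53 passed the expression filter and were tested among 16646 genes. Of these 53, 40 were at the filter's level of 0.639 CPM in all 3 DMSO libraries and 13 fell below it in some DMSO library. In every library without tazemetostat 6 were below it (SEMA3E, SEMA5A, SEMA6D, EPHA7, SLIT2 and NTN4), so these 6 could enter the test only through the arms in which they were high. The filter needs 3 libraries at its level. EPHA5 reached it in 2 and EPHB6 in 1 of the libraries without tazemetostat, so both also passed only through the tazemetostat arms. EFNB3 and SLIT1 were below it in every DMSO library and reached it in the treated arms. The counts below are therefore counts of members tested, and 15 members were not tested.

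Axon guidance genes as a group stood higher in each treated arm. Of the 53 members tested, 25 were higher and 1 was lower with AKTi than in DMSO, 46 were higher and 1 lower with EZH2i, and 41 were higher and 4 lower in the combination (edgeR quasi-likelihood test, adjusted p under 0.05 over all genes tested). Among all genes tested, 20.6% were higher and 21.9% lower with AKTi, 32.6% and 31.5% with EZH2i, and 38% and 35.2% with the combination, against 47.2% and 1.89%, 86.8% and 1.89%, and 77.4% and 7.55% of members. The counts were repeated without the 6 members, and without the background genes, that were below the filter's level in every library without tazemetostat. Then 40 of 47 members were higher with EZH2i (85.1% against 30.8% of genes) and 35 with the combination (74.5% against 35.8%). EPHA5 and EPHB6 remain among these 47 and were higher in both arms. The median log2 fold change of the members tested was 0.32 with AKTi, 0.98 with EZH2i and 0.97 with the combination, where the medians of all genes tested were 0.01, 0.03 and 0.06. Leaving out the 5 members with 3 counts or fewer over the DMSO or the AKTi libraries, whose fitted values depend on the prior count, gave medians of 0.35, 0.91 and 0.93. Both roles took part: 25 of 28 ligands and 21 of 25 receptors tested were higher with EZH2i. Among the 8 tested members with a mean of 1000 counts or more over the 12 libraries, all 8 were higher with EZH2i, and 31.6% of the genes tested at that abundance were.

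**Figure D1:**
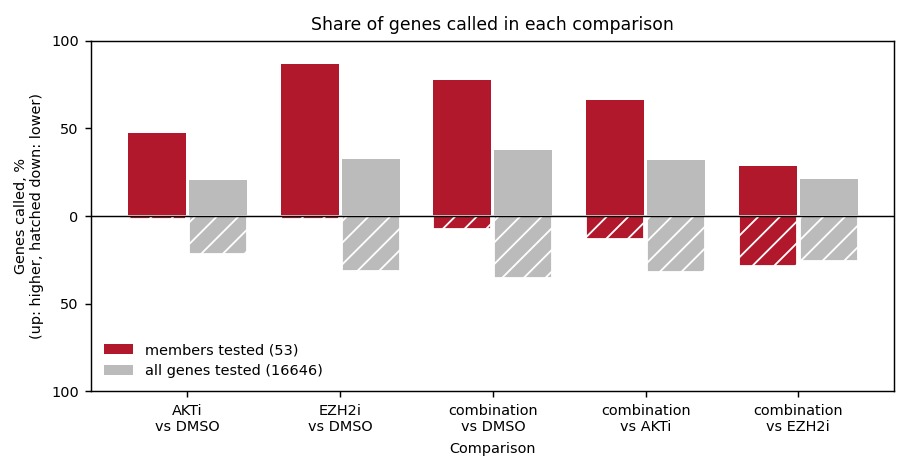
Share of genes called higher (bars upward) and lower (hatched bars downward), in percent, for the 53 members tested and for the 16646 genes tested, in 5 comparisons. In each comparison other than the combination against EZH2i, the members' upward bar is the taller of the pair and their downward bar the shorter.

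The most frequent pattern was a rise in every treated arm, shown by 21 members (39.6%, against 14.6% of all genes tested), among them NRP1, SEMA3B, SEMA3C, PLXNA3, PLXNB2, EFNA1, EFNB3, EPHB4 and SLIT1. Another 18 members (34%, against 13.2% of all genes tested) rose with EZH2i and the combination but did not pass the test with AKTi, among them EPHA5, UNC5C, PLXNA2 and ROBO1. These 18 include the 6 members below the filter's level in every library without tazemetostat, which leaves 12 without them. EPHA5 and EPHB6, which also passed the filter only through the tazemetostat arms, are among those 12. The 3 comparisons share the DMSO libraries. Against DMSO, SEMA3G and SEMA4G were called with AKTi and in neither other arm, EFNB1, EPHA1 and SEMA3F with EZH2i and in neither other arm, and ROBO3 with AKTi and the combination. Several of these patterns depended on the setting. SEMA3G was called lower with EZH2i in 6 of 19 alternatives, among them leaving out DMSO library C, EZH2i library B or any 1 AKTi library. SEMA4G was called in the combination with library size scaling, EFNB1 and EPHA1 were called there with library size or upper-quartile scaling, and the EZH2i call of EFNB1 was lost without DMSO library B. EFNA3 and EFNA5 were higher with EZH2i and lower with the combination, EPHA2 was lower in both arms with tazemetostat, PLXNC1 was lower in the combination, and NTN3 and UNC5B were not called against DMSO, although NTN3 passed with EZH2i in 6 of 18 alternatives, among them leaving out DMSO library A, EZH2i library C or combination library A, and UNC5B passed in the combination in 3 of 19.

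**Figure D2:**
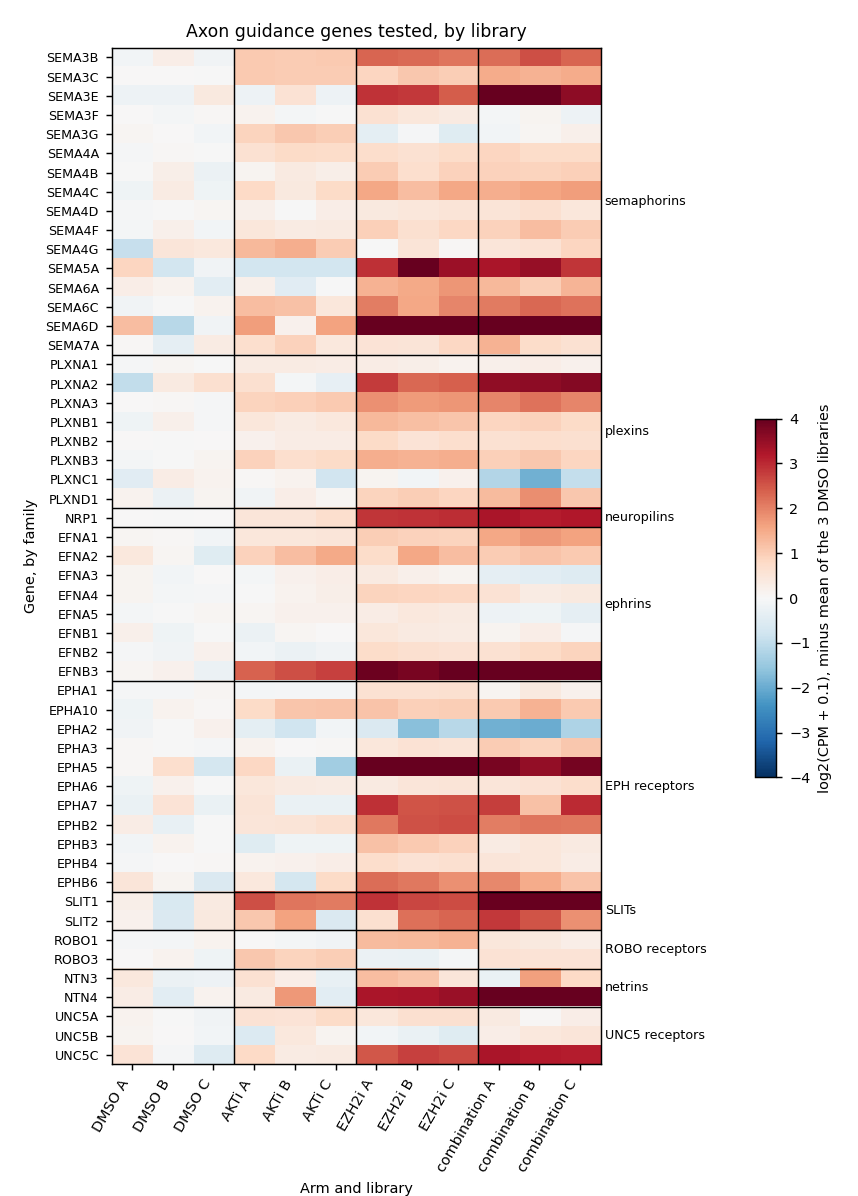
Level of the 53 members tested in each of the 12 libraries, as log2(CPM + 0.1) minus the mean of the 3 DMSO libraries, grouped by family. Red is above and blue below the DMSO mean, with the colour limited to 4 in either direction. The EZH2i and combination columns are red for most rows, while EPHA2 is blue in both and PLXNC1 in the combination.

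Summed over each family, length-scaled levels were higher in all 3 EZH2i libraries and all 3 combination libraries than in any DMSO library for each of the 9 families, under each of 3 scalings. Neuropilins moved most among the well-expressed families, from a summed level of 3.68 RPKM in DMSO to 5.38 with AKTi, 27.6 with EZH2i and 33.85 in the combination. Semaphorins went from 42.5 to 70.8, 77.1 and 92.1 RPKM in the same order. ROBO receptors peaked with EZH2i, at 5.95 RPKM against 2.77 in DMSO, and stood at 3.69 RPKM in the combination, with no overlap between any of these groups of libraries. The summed netrins of AKTi and DMSO overlapped.

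**Figure D3:**
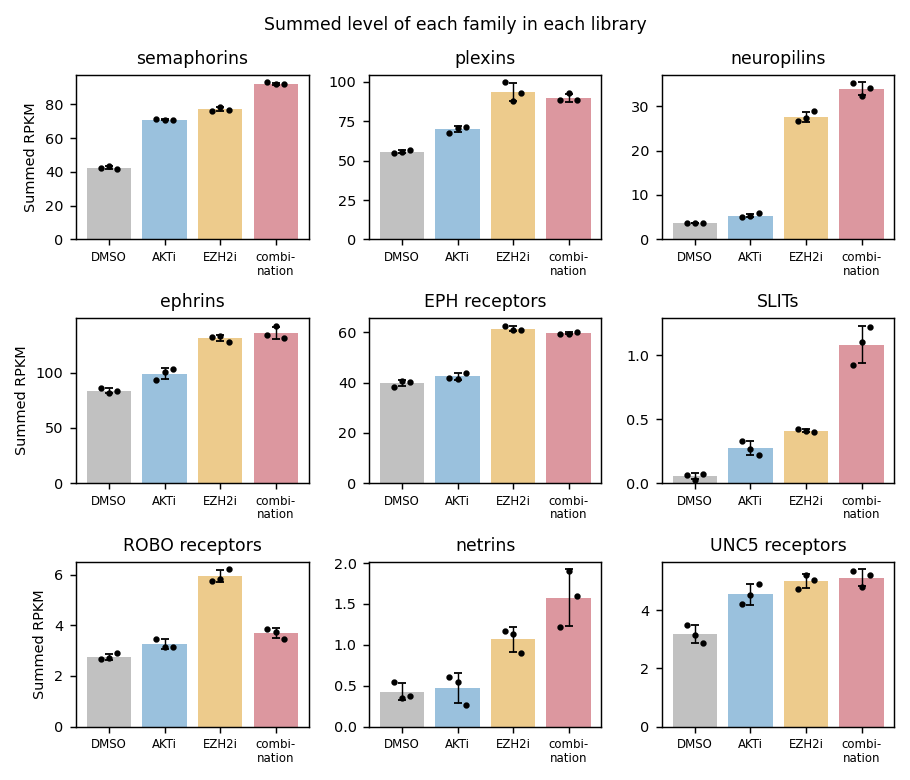
Summed length-scaled level (RPKM) of the members of each of the 9 families by arm. Bars are means of 3 libraries, error bars SDs and points single libraries, on axes that start at 0. SLITs rise at each step from 0.0519 in DMSO to 1.08 RPKM in the combination, while ROBO receptors are highest with EZH2i.

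Of the semaphorins, 14 of 16 tested were higher with EZH2i, 13 with the combination and 9 with AKTi, and none was lower against DMSO. Among all genes tested, 32.6%, 38% and 20.6% were higher in the same order. The 14 and the 13 include SEMA3E, SEMA5A and SEMA6D, which entered the test through the tazemetostat arms. SEMA3C, a secreted cue also known for promoting prostate cancer cell growth, held 43.7% of the summed semaphorin RPKM in DMSO and 55.3% in the combination. Its levels were 117.4, 116.5 and 115.6 CPM in the 3 DMSO libraries, 240.5, 236 and 238 CPM with AKTi, 212, 247 and 228 CPM with EZH2i, and 327, 306 and 326 CPM in the combination. DMSO and the combination were each apart from the other arms, whereas the AKTi and EZH2i libraries overlapped. The log2 fold changes from DMSO were 1.03 (SE 0.057), 0.98 (SE 0.056) and 1.46 (SE 0.056) for AKTi, EZH2i and the combination, with edgeR adjusted p-values of 3.74e-17, 1.86e-17 and 4e-23. SEMA3B, a cue often lost in cancers, rose in the same 3 comparisons, from 4.2 ± 0.71 CPM in DMSO to 8.69 ± 0.12 with AKTi, 20.2 ± 1.2 with EZH2i and 22.2 ± 2.7 with the combination. Its libraries were at 3.837, 5.016 and 3.74 CPM in DMSO, 8.753, 8.547 and 8.759 CPM with AKTi, 21.29, 20.4 and 18.88 CPM with EZH2i, and in the combination 20.12, 25.2 and 21.2 CPM. The AKTi libraries lay above DMSO and below those with tazemetostat, which overlapped each other.

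SEMA6D and SEMA5A, which are transmembrane, and SEMA3E, which binds PLXND1 directly, were near silent in DMSO. SEMA6D, which signals through A-type plexins, was at 0.404, 0 and 0.0959 CPM in DMSO, 0.579, 0.14 and 0.556 CPM with AKTi, 3.55, 6.25 and 3.86 CPM with EZH2i, and 8.01, 10.3 and 7.55 CPM in the combination. The combination libraries all lay above the EZH2i libraries, and these above the libraries without tazemetostat. Its log2 fold change was 4.74 (SE 0.44) with EZH2i and 5.66 (SE 0.41) with the combination (edgeR adjusted p = 7.4e-12 and 5.5e-15). SEMA6D was below the filter's level in all 6 libraries without tazemetostat, so it could be tested only because it was high with tazemetostat, and these p-values are no independent support. SEMA3E had 1 count over the 3 DMSO libraries, 34 with EZH2i and 90 in the combination, a ratio of 82.7 for the combination with an exact 95% interval of 14.5 to 3300, and SEMA5A had 4, 98 and 77 counts, a ratio of 17.7 (6.63 to 66.6). By library SEMA3E was at 0, 0 and 0.04795 CPM in DMSO, 0, 0.07006 and 0 CPM with AKTi, 0.7366, 0.7014 and 0.5053 CPM with EZH2i, and in the combination 1.723, 2.018 and 1.269 CPM. These intervals cover counting error only. SEMA3G, which acts on vessels, differed from its relatives: it rose with AKTi, from 10.7 to 21.2 CPM on average, and was at 7.67 to 12.4 CPM in the libraries with tazemetostat. SEMA4G, a class 4 semaphorin also called with AKTi, was at 0.6058, 1.77 and 1.678 CPM in DMSO, 3.183, 3.573 and 2.572 CPM with AKTi, 1.205, 1.812 and 1.286 CPM with EZH2i, and in the combination 1.774, 1.903 and 2.296 CPM. The AKTi libraries were the highest, and the other arms overlapped. For SEMA3G the values were 11.31, 10.84 and 9.926 CPM in DMSO, 19.75, 22.77 and 21.06 CPM with AKTi, 8.036, 10.4 and 7.672 CPM with EZH2i, and in the combination 9.783, 11.36 and 12.38 CPM.

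NRP1, the co-receptor of class 3 semaphorins and of VEGF, rose in every treated arm. It was at 42.3, 42.3 and 42.3 CPM in DMSO, 58.7, 59.8 and 67.3 CPM with AKTi, 306, 313 and 332 CPM with EZH2i, and 405, 372 and 392 CPM in the combination. No arm overlapped another. Log2 fold changes were 0.55 (SE 0.066) with AKTi, 2.91 (SE 0.063) with EZH2i and 3.203 (SE 0.063) with the combination, a 9.21-fold difference (edgeR adjusted p = 5.49e-32). The second neuropilin, NRP2, did not pass the filter, with 3 counts in DMSO, 39 with EZH2i and 25 in the combination, and NRP1 held 99.9% of the neuropilin RPKM in DMSO.

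Plexins, the signalling receptors for semaphorins, rose with EZH2i in 7 of 8 tested members, where 32.6% of all genes tested were higher. PLXNB2 kept about the same share of the plexin total, 73.4% of RPKM in DMSO and 70.7% in the combination, and rose from 296 ± 6.0 CPM in DMSO to 468 ± 35 CPM with EZH2i and 461 ± 10 CPM in the combination. By library PLXNB2 was at 296.9, 290 and 301.9 CPM in DMSO, 336.7, 365.3 and 365.8 CPM with AKTi, 502.5, 432 and 468.9 CPM with EZH2i, and in the combination 452.1, 471.7 and 459.1 CPM. PLXNB3, a further B-type plexin, was at 18.92, 19.69 and 21.39 CPM in DMSO, 37.69, 31.81 and 34.27 CPM with AKTi, 55.04, 52.02 and 54.44 CPM with EZH2i, and in the combination 38.98, 41.97 and 36.49 CPM. For PLXNB2 the EZH2i and combination libraries overlapped, whereas for PLXNB3 the EZH2i libraries were all above the other arms. The A-type plexins that pair with neuropilins differed in size of change. PLXNA3 was at 15.1, 15.3 and 14.5 CPM in DMSO, 27.6, 28.8 and 30.7 with AKTi, 53.3, 48.7 and 51.5 with EZH2i and 57.6, 67.5 and 58.5 in the combination, whereas PLXNA1 rose by 0.21 on the log2 scale in the combination (SE 0.061, edgeR adjusted p = 0.00306). PLXNA2 was at 0.404, 1.18 and 1.44 CPM in DMSO, 1.45, 0.841 and 0.695 with AKTi, 6.76, 4.79 and 5.10 with EZH2i and 11.5, 11.8 and 12.8 in the combination. DMSO and AKTi overlapped for PLXNA2, and the combination was 11.4-fold above DMSO (log2 fold change 3.51, SE 0.25, edgeR adjusted p = 4.41e-15). PLXNC1, the receptor of SEMA7A, was the plexin that fell: it was at 1.14, 1.99 and 1.77 CPM in DMSO and 0.659, 0.346 and 0.785 CPM in the combination (log2 fold change -1.45, SE 0.41, edgeR adjusted p = 0.00186), with AKTi and EZH2i libraries between 0.904 and 1.79 CPM. The span of PLXNC1 overlaps that of CEP83 on the opposite strand, which averaged 21.7 CPM in DMSO and 8.92 CPM in the combination. Reads of the pair may be shared if strand was ignored, which was not tested.

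**Figure D4:**
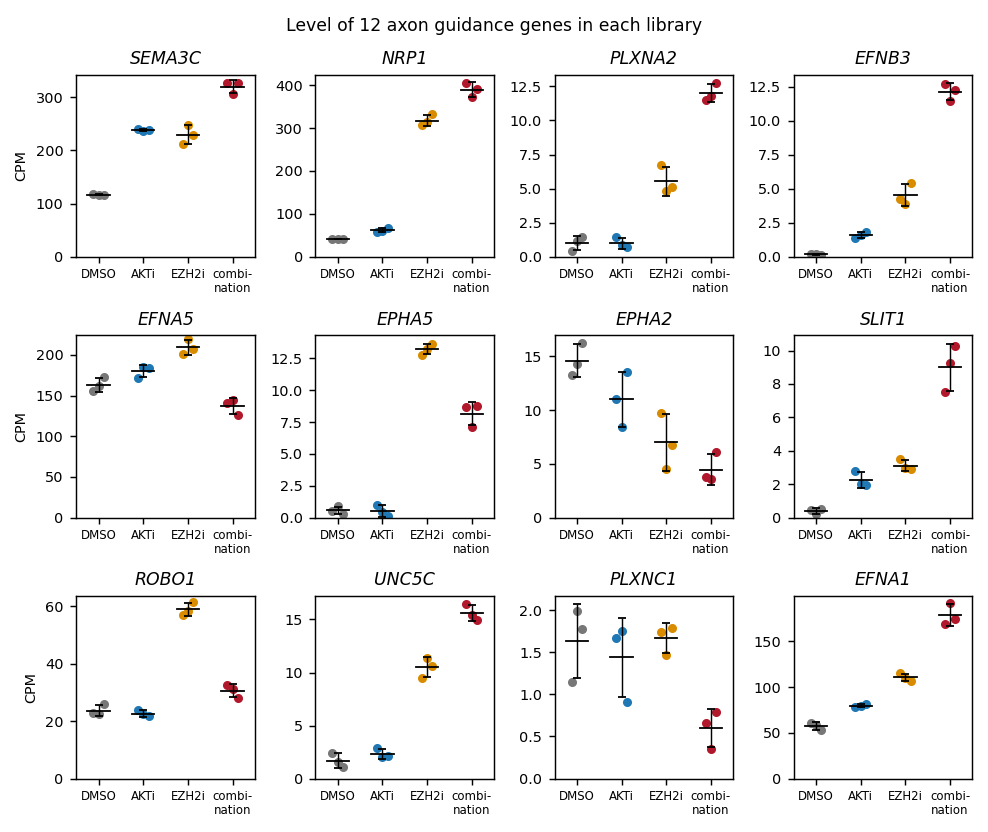
CPM of 12 members in each library (points), with the mean and SD of the 3 libraries of an arm, on linear axes that start at 0. NRP1 and EPHA5 rise mainly in the arms with tazemetostat, EFNB3 and SLIT1 rise at each step, EFNA5 and ROBO1 peak with EZH2i, and EPHA2 falls.

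All 8 ephrins passed the filter, and all 8 were higher with EZH2i, but the combination raised 5 and lowered 2. Among all genes tested, 32.6% were higher with EZH2i, and 38% were higher and 35.2% lower with the combination. EFNB3, a B-type ephrin best known at the midline of the spinal cord, had the largest combination fold change among tested members with more than 3 DMSO counts. It was at 0.202, 0.221 and 0.144 CPM in DMSO, 1.37, 1.61 and 1.81 CPM with AKTi, 4.22, 3.92 and 5.47 CPM with EZH2i, and 12.7, 11.5 and 12.3 CPM in the combination. The 4 arms did not overlap and lay in that order. Its log2 fold changes were 3.08 (SE 0.40), 4.59 (SE 0.33) and 6.00 (SE 0.30), with edgeR adjusted p-values of 6.18e-08, 7.75e-15 and 5.61e-20, and from 9 DMSO counts in all the combination ratio was 66.7 with an exact 95% counting interval of 34.9 to 146. EFNB3 was below the filter's level in every DMSO library and entered the test through the treated arms, so these p-values are no independent support. EFNA2, an A-type ephrin, was at 1.548, 1.18 and 0.7672 CPM in DMSO, 2.242, 2.802 and 3.406 CPM with AKTi, 1.942, 3.507 and 2.802 CPM with EZH2i, and in the combination 2.382, 2.595 and 2.416 CPM. Every DMSO library of EFNA2 was below every other library, and the treated arms overlapped (AKTi log2 fold change 1.30, SE 0.32, edgeR adjusted p = 0.000996).

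Within the A-type ephrins, which are anchored by a lipid and prefer EPHA receptors, the leading member changed. EFNA5 held 34.3% and EFNA1 27.2% of summed ephrin RPKM in DMSO, and in the combination EFNA1 held 51.7% and EFNA5 17.7%. EFNA1 was at 61.1, 58.9 and 53.03 CPM in DMSO, 78.3, 79.5 and 81.2 with AKTi, 115, 110.1 and 107 with EZH2i and 169, 192 and 174 in the combination, with no overlap between arms (combination log2 fold change 1.63, SE 0.064, edgeR adjusted p = 5.01e-23). EFNA5 was at 155, 162 and 172 CPM in DMSO, 172, 185 and 184 with AKTi, 201, 219 and 208 with EZH2i and 141, 145 and 127 in the combination. The combination thus lay below every other arm for EFNA5, with a log2 fold change of -0.25 from DMSO (SE 0.059, edgeR adjusted p = 0.000355) and of -0.60 from EZH2i (SE 0.059, edgeR adjusted p = 6.97e-11). The difference from DMSO was -0.05 with library size scaling and -0.06 with upper-quartile scaling, neither past the threshold. EFNA3 followed the same course, from 21.1 CPM in DMSO to 24.8 with EZH2i and 15.5 in the combination, and its rise with EZH2i (log2 fold change 0.23, SE 0.10, edgeR adjusted p = 0.0481) was lost in 13 of 19 alternatives, among them leaving out any 1 EZH2i library or DMSO library B or C. The EFNA3 libraries were at 22.48, 19.62 and 21.05 CPM in DMSO, 19.89, 23.75 and 25.23 CPM with AKTi, 26.99, 24.37 and 22.92 CPM with EZH2i, and in the combination 16.22, 15.74 and 14.56 CPM. The combination libraries lay below all others.

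EPH receptors, the kinases that bind ephrins, were higher with EZH2i in 10 of 11 tested members, where 32.6% of all genes tested were higher. The 10 include EPHA7, EPHA5 and EPHB6, which passed the filter only through the tazemetostat arms. EPHA5, a receptor of the developing brain, was at 0.539, 0.885 and 0.288 CPM in DMSO and 1.01, 0.42 and 0.139 CPM with AKTi, against 12.8, 13.3 and 13.6 CPM with EZH2i and 8.67, 7.09 and 8.76 CPM in the combination. AKTi overlapped DMSO, and every EZH2i library was above every combination library. Its log2 fold change was 4.61 (SE 0.28) with EZH2i and 3.92 (SE 0.29) with the combination (edgeR adjusted p = 5.5e-17 and 7.59e-15), and the combination was lower than EZH2i by -0.69 (SE 0.18, edgeR adjusted p = 0.00196). EPHA5 could be tested only because it was high with tazemetostat, so the p-values against DMSO are no independent support. EPHA7 had 1 count in DMSO and 35 with EZH2i, a ratio of 32.0 with an exact 95% interval of 5.39 to 1300. By library EPHA7 was at 0, 0.07376 and 0 CPM in DMSO, 0.07234, 0 and 0 CPM with AKTi, 0.8036, 0.5845 and 0.5972 CPM with EZH2i, and in the combination 0.7097, 0.173 and 0.8458 CPM. EPHB2, a receptor of B-type ephrins, rose from 2.86 ± 0.61 CPM in DMSO to 15.7 ± 2.7 CPM with EZH2i and 12.3 ± 0.39 CPM in the combination. By library it was at 3.5, 2.287 and 2.781 CPM in DMSO, 3.979, 4.063 and 4.449 CPM with AKTi, 12.59, 17.01 and 17.59 CPM with EZH2i, and in the combination 11.91, 12.68 and 12.38 CPM. EPHB4, the leading EPH receptor by length-scaled level in DMSO, was at 73.71, 77.37 and 79.7 CPM in DMSO, 84.06, 86.45 and 91.9 CPM with AKTi, 124.5, 115.2 and 120.5 CPM with EZH2i, and in the combination 106.6, 106.2 and 95.45 CPM. For both genes every treated library was above every DMSO library. The AKTi call was lost in 4 of 19 alternatives for EPHB2 and in 5 of 19 for EPHB4.

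EPHA2, a receptor tied to growth and migration of carcinoma cells and a main partner of EFNA1, ran against its family. It was at 13.3, 14.3 and 16.3 CPM in DMSO, 11.1, 8.41 and 13.6 CPM with AKTi, 9.777, 4.5 and 6.753 CPM with EZH2i, and 3.75, 3.58 and 6.10 CPM in the combination. Every library with tazemetostat was below every DMSO library, and the EZH2i and combination ranges overlapped; the combination was lower than EZH2i by -0.64 (SE 0.21, edgeR adjusted p = 0.013), a call lost with DESeq2 and without EZH2i library A or combination library A or B. The log2 fold change was -1.08 with EZH2i (SE 0.19, edgeR adjusted p = 7.02e-06) and -1.72 with the combination (SE 0.20, edgeR adjusted p = 1.47e-09), a level 0.303 times that of DMSO. EPHA2 took 8.85% of the summed EPH receptor RPKM in DMSO and 1.8% in the combination, while EPHA3 went from 28.5% to 37.9%. EPHA3, another receptor of A-type ephrins, was at 78.6, 74.9 and 72.9 CPM in DMSO and 153, 141 and 158 CPM in the combination (log2 fold change 1.00, SE 0.061, edgeR adjusted p = 3.21e-17). EPHB3 was the member called lower with AKTi (log2 fold change -0.27, SE 0.10, edgeR adjusted p = 0.0277), a call that was lost with library size or upper-quartile scaling and without DMSO library B (-0.24) or AKTi library A (-0.18), and it rose from 22.1 CPM in DMSO to 45.9 CPM with EZH2i. By library EPHB3 was at 20.67, 24.12 and 21.63 CPM in DMSO, 15.7, 19.41 and 19.67 CPM with AKTi, 49.96, 45.82 and 41.94 CPM with EZH2i, and in the combination 27.73, 30.21 and 28.27 CPM.

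SLIT1 supplied most of the SLIT signal, 86.2% of RPKM in DMSO and 91.3% in the combination. This repellent ligand was at 0.471, 0.221 and 0.527 CPM in DMSO, 2.82, 2.03 and 1.95 CPM with AKTi, 3.48, 2.98 and 2.89 CPM with EZH2i and 7.50, 9.23 and 10.3 CPM in the combination. Each treated arm was apart from DMSO, AKTi and EZH2i did not overlap, and the combination was highest. The combination log2 fold change was 4.38 (SE 0.29), or 20.85-fold (edgeR adjusted p = 2.76e-16), and it was also higher than EZH2i by 1.53 (SE 0.21, edgeR adjusted p = 1.19e-07). SLIT1 was below the filter's level in every DMSO library and entered the test through the treated arms, so the p-value against DMSO is no independent support. SLIT2 had 3 counts in DMSO, 26 with EZH2i and 39 in the combination, a combination ratio of 11.9 with an exact 95% interval of 3.8 to 60.4.

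The ROBO receptors did not follow the course of the SLITs. ROBO1 was at 22.8, 22.4 and 25.8 CPM in DMSO, 23.9, 22.4 and 21.6 CPM with AKTi, 57.0, 58.3 and 61.5 CPM with EZH2i, and 32.6, 31.1 and 28.2 CPM in the combination. Thus AKTi overlapped DMSO, EZH2i was 2.48-fold above DMSO (log2 fold change 1.31, SE 0.083, edgeR adjusted p = 2.18e-16), and the combination was 0.521 times the EZH2i level (log2 fold change -0.94, SE 0.080, edgeR adjusted p = 2.03e-12). ROBO3, a divergent receptor of commissural axons, differed from ROBO1, with 4.15 ± 0.44 CPM in DMSO, 8.22 ± 0.52 with AKTi, 3.61 ± 0.30 with EZH2i and 6.11 ± 0.066 in the combination. Its EZH2i difference from DMSO did not pass the test (edgeR adjusted p = 0.398).

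Netrins were scarce. NTN3 led them in DMSO at 0.322 ± 0.10 RPKM, with a combination log2 fold change of 0.97 (SE 0.48, edgeR adjusted p = 0.0694) that passed the threshold with library size scaling (1.17), with upper-quartile scaling (1.16) and without combination library A (1.36). Its libraries were at 0.8751, 0.5163 and 0.5275 CPM in DMSO, 1.013, 0.7706 and 0.4866 CPM with AKTi, 1.607, 1.461 and 0.9188 CPM with EZH2i, and in the combination 0.5069, 2.133 and 1.148 CPM. NTN4, a laminin-like netrin of basement membranes, had 2 counts in DMSO, 6 with AKTi, 69 with EZH2i and 178 in the combination. The 3 combination libraries were at 3.498, 2.825 and 3.625 CPM and the 3 EZH2i libraries at 1.21, 1.23 and 1.38 CPM, without overlap, and no DMSO library was above 0.0673 CPM. The ratio to DMSO was 31.6 for EZH2i (exact 95% interval 8.42 to 266) and 81.8 for the combination (22.3 to 680), and NTN4 went from 2.17% to 50.5% of summed netrin RPKM.

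Among the netrin receptors, UNC5C changed most. UNC5C, a repulsive dependence receptor, was at 2.42, 1.55 and 1.10 CPM in DMSO, 2.89, 2.03 and 2.08 CPM with AKTi, 9.51, 11.4 and 10.7 CPM with EZH2i, and 16.42, 15.45 and 14.98 CPM in the combination. AKTi and DMSO overlapped, and the combination was above EZH2i in every library. The log2 fold change was 2.68 (SE 0.20) with EZH2i and 3.24 (SE 0.19) with the combination (edgeR adjusted p = 2.5e-14 and 2.09e-17). UNC5A, the highest of its family in DMSO at 2.28 ± 0.20 RPKM, rose with AKTi (log2 fold change 0.65, SE 0.13, edgeR adjusted p = 5.76e-05) and with EZH2i (0.59, SE 0.12, edgeR adjusted p = 8.71e-05), but in the combination the log2 fold change was 0.24 (SE 0.13, edgeR adjusted p = 0.0892). It passed the threshold there with library size (0.43) or upper-quartile scaling (0.42), with 10 counts or more required in every library (0.31) and without combination library B (0.32). By library UNC5A was at 10.84, 9.884 and 9.063 CPM in DMSO, 14.97, 14.57 and 17.03 CPM with AKTi, 13.73, 15.43 and 15.39 CPM with EZH2i, and in the combination 12.67, 10.26 and 12.02 CPM.

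Promoter sequences let the members be compared at their start sites. EZH2 complexes are known to gather at CpG-rich promoters that are not active, so the 150 bases before the start are printed, with CpG dinucleotides in capitals, for EPHA5, NTN4 and SLIT1, which were near silent in DMSO and rose with EZH2i, for SEMA3C, the most abundant semaphorin, and for EPHA2, which fell. The sequences are from RefSeq, build GRCh38.p14, are read 5′ to 3′ on the minus strand in all 5 cases and lie at chr4:65670490-65670639, chr12:95791156-95791305, chr10:97185960-97186109, chr7:80922390-80922539 and chr1:16156070-16156219 in the order shown.
EPHA5: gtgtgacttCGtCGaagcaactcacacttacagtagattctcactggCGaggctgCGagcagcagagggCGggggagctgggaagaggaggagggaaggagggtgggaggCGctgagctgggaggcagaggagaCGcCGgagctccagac
NTN4: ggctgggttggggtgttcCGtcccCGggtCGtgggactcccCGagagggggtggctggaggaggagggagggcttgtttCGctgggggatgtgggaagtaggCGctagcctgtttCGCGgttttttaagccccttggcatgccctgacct
SLIT1: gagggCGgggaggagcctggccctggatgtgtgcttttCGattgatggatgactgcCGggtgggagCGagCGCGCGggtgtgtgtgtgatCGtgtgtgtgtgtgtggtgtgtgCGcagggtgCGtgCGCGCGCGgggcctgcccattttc
SEMA3C: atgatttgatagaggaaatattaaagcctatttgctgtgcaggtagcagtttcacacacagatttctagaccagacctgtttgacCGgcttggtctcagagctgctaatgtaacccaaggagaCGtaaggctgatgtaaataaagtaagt
EPHA2: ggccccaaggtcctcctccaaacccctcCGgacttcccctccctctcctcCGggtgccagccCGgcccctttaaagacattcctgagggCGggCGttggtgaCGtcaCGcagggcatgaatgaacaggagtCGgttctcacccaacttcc
These stretches hold 8 CpGs in EPHA5, 8 in NTN4, 14 in SLIT1, 2 in SEMA3C and 8 in EPHA2. Symbols matched the promoter table for 58 members, and 49 had a window of 300 bases (250 before and 50 after the start) within 2000 bases of the gene's start in the count table. The 36 windows of members higher with EZH2i held 2 to 52 CpGs with a median of 26.5, the 5 windows of members tested and not higher held 8 to 28 with a median of 20, and the windows of 9214 protein-coding genes tested had a median of 27.0. SEMA3C, with 2 CpGs in 300 bases, was the poorest in CpG of the 49. The forkhead motif GTAAACA, searched on either strand, was in the windows of SEMA3E and SEMA5B, or 4.08% of members against 2.55% of 13251 protein-coding genes, and the E-box CACGTG, which reads the same on either strand, was in those of SEMA3E, SEMA6D and EPHA8, or 6.12% against 9.15%. These matches are descriptions of letters in a window and not of binding.

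Setting the combination against each single agent asked whether the agents together moved these genes past either alone. Against AKTi, 35 members were higher and 7 lower (66% and 13.2% of those tested, where 32.1% of all genes were higher and 32.1% lower). Without the members and genes below the filter's level in every library without tazemetostat, 29 of 47 were higher and 7 lower (61.7% and 14.9%, against 30% and 33.8%). These 47 still hold EPHA5 and EPHB6. Against EZH2i, 15 were higher and 15 lower (28.3% each way, against 21.1% and 25.7% of all genes). Without such genes 12 of 47 were higher and 15 lower (25.5% and 31.9%, against 21.2% and 26.7%). The directions differed between classes of abundance. Of the members with a mean under 100 counts, 8 of 20 were higher and 1 lower (40% and 5%, against 14.6% and 8.48% of genes tested at that abundance). These 8 include SEMA3E, SEMA6D and NTN4, which entered the test through the tazemetostat arms. Of those with 100 to 1000 counts, 3 of 25 were higher and 12 lower (12% and 48%, against 24.6% and 28.3% of genes). Of those with 1000 counts or more, 4 of 8 were higher and 2 lower (50% and 25%, against 24.5% and 46.6%). With 10 counts required in every library, 9 members were higher. By role the directions differed in count, with 8 ligands higher and 4 lower and 7 receptors higher and 11 lower, a difference that was not tested. The combination was higher than both single agents for 12 members, namely SEMA3C, SEMA3E, SEMA6D, PLXNA2, PLXNA3, NRP1, EFNA1, EFNB3, EPHA3, SLIT1, NTN4 and UNC5C (22.6%, against 15.5% of all genes). SEMA3E, SEMA6D and NTN4 were below the filter's level in every library without tazemetostat, and without such genes the count was 9 of 47 (19.1%, against 15.4%). It was 6 with 10 counts required in every library. The combination was lower than both for EFNA3, EFNA5, EPHA2, PLXNC1 and UNC5A (9.43%, against 19.7% of all genes), a count of 5 that became 2 without combination library B. The combination and the single-agent arms share the DMSO libraries in the comparisons above, but not in these.

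The difference in the ipatasertib effect with and without tazemetostat was tested as an interaction on the log2 scale. It was below 0 for 23 members and above 0 for 2 (43.4% and 3.77% of those tested, against 17.5% and 10.7% of all genes), with a median of -0.41 over the members tested and -0.05 over all genes. A value below 0 says that the combination lay below the product of the separate fold changes. For SEMA3B, AKTi alone gave a log2 fold change of 1.07 (SE 0.15), and the combination differed from EZH2i by 0.14 (SE 0.11). PLXNB3 was raised by AKTi alone (0.78, SE 0.088) and was lower in the combination than with EZH2i (-0.46, SE 0.078), an interaction of -1.24 (SE 0.12, edgeR adjusted p = 1.73e-10). The same was seen for UNC5A, with 0.65 (SE 0.13) and -0.35 (SE 0.12). The 2 members above 0 were EPHA3 (0.40, SE 0.087, edgeR adjusted p = 0.000478) and PLXNA2 (1.19, SE 0.41, edgeR adjusted p = 0.0269). The PLXNA2 call was lost without DMSO library B (1.16) or C (0.77), AKTi library B (1.13) or C (1.03) or combination library C (1.15).

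**Figure D5:**
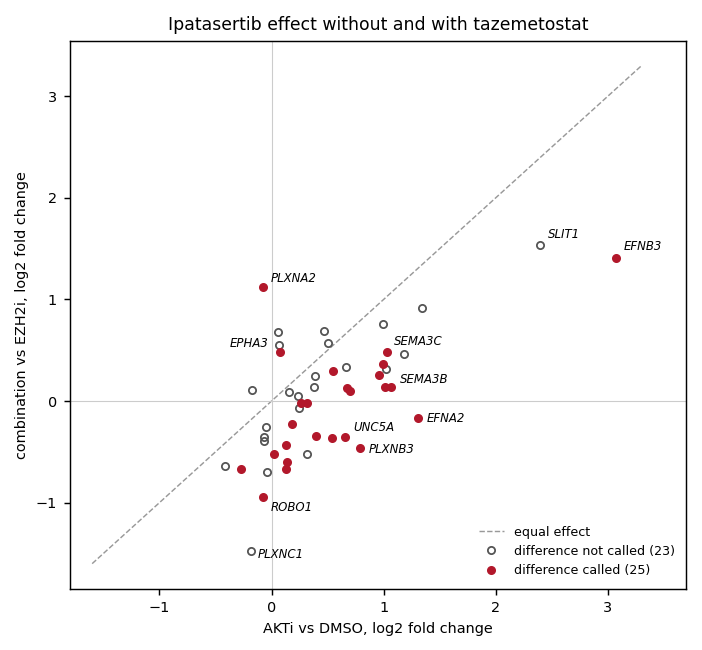
Log2 fold change of AKTi against DMSO (x axis) and of the combination against EZH2i (y axis) for 48 members; the 5 tested members with 3 counts or fewer in an arm are left out. Filled points are members whose 2 effects differed in the edgeR interaction test, and the dashed line marks equal effects. Most filled points lie below the line, with PLXNA2 and EPHA3 above it.

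The 15 members that did not pass the filter were SEMA3A, SEMA3D, SEMA5B, SEMA6B, PLXNA4, NRP2, EPHA4, EPHA8, EPHB1, SLIT3, ROBO2, ROBO4, NTN1, NTN5 and UNC5D. None had a level above 1.011 CPM in any library, so each value rests on few counts. SEMA3A had 3 counts over the DMSO libraries, 21 with EZH2i and 4 with the combination, and the exact 95% counting interval of its EZH2i ratio was 1.91 to 33.6. NRP2 (3 and 39 counts, ratio 11.9, interval 3.78 to 60.2), EPHA8 (2 and 28 counts, ratio 12.8, interval 3.23 to 111) and EPHB1 (5 and 28 counts, ratio 5.13, interval 1.95 to 17) likewise had EZH2i intervals above 1, as had PLXNA4 (1 and 18 counts, interval from 2.6) and SLIT3 (1 and 15 counts, interval from 2.11). SEMA6B had 0 counts in DMSO, 7 with EZH2i and 14 with the combination, SEMA3D 0, 2 and 9, and EPHA4 0, 3 and 8. For SEMA5B, ROBO2, ROBO4, NTN5 and UNC5D no interval lay above 1, and a change was not detectable at this depth. NTN1 averaged 0.249 CPM in DMSO, 0.401 CPM with EZH2i and 0.490 CPM in the combination, and no interval was computed for it. The intervals pool the libraries of an arm and leave out the spread between them. By library, EPHA4 had 0, 0 and 8 counts in the combination, and PLXNA4 had 0, 5 and 13 with EZH2i.

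Other genes of the pathway were counted in the same way. Of 80 listed partners (co-receptors, cytoplasmic adaptors, GTPases, kinases and other cues), 67 were tested, of which 16 were higher and 9 lower with AKTi, 36 and 10 with EZH2i and 36 and 12 with the combination. These are 23.9% and 13.4%, 53.7% and 14.9%, and 53.7% and 17.9%, beside 20.6% and 21.9%, 32.6% and 31.5%, and 38% and 35.2% of all genes tested. Their median log2 fold change in the combination was 0.36. Among the tested partners, the 3 largest rises in the combination were of CXCL12, a chemokine that guides neurons and germ cells (log2 fold change 4.06, SE 0.57), of the adhesion molecule L1CAM (3.68, SE 0.61) and of PTK7, a pseudokinase that binds plexins and WNT receptors (3.28, SE 0.11). CXCL12 averaged 0.135 CPM in DMSO and 0.190 CPM with AKTi, and L1CAM 0.121 and 0.517 CPM, all under the filter's level of 0.639 CPM. Both entered the test through the tazemetostat arms, so their rises there are no independent support. The partner counts were not recomputed without such genes. The 3 largest falls past the threshold were of FARP2, an exchange factor bound by A-type plexins (-1.36, SE 0.074), of the collapsin response mediator DPYSL3 (-1.20, SE 0.088) and of the GTPase RHOD (-0.71, SE 0.098). DCC, the attractive netrin receptor, had a mean of 0 CPM in DMSO, AKTi and the combination, whereas its relative NEO1 rose from 56.95 CPM in DMSO to 164 CPM in the combination (log2 fold change 1.52, SE 0.061, edgeR adjusted p = 9.63e-23).

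Some members share their span with another gene, and the strand setting of the counting is not given in the sources used here. The pseudogene AC115223.1 lies opposite EPHA5 and averaged 29.4 CPM in DMSO and 23.9 with EZH2i while EPHA5 rose. AC044787.1, opposite SEMA6D, averaged 11.67 CPM in DMSO and 8.57 in the combination. The antisense gene AC106881.1 rose beside UNC5C, from 0.332 to 4.62 CPM, and MRPL43, opposite SEMA4G, and LAGE3, opposite PLXNA3, fell from 56.8 to 34.9 and from 58.2 to 23.5 CPM. ZYX, opposite EPHA1, had 379% of the counts of EPHA1 over all libraries and rose beside it, from 39.5 CPM in DMSO to 76.1 CPM with EZH2i, while EPHA1 averaged 13.2 and 20.2 CPM. SLC12A9, opposite EPHB4, had 30.2% of the counts of EPHB4 over all libraries. It averaged 25.9 CPM in DMSO, 37.0 with AKTi and 27.9 with EZH2i, while EPHB4 averaged 76.9, 87.5 and 120.1 CPM. Overlap was taken from whole gene spans and not from exons. Reads of such pairs may be shared if strand was ignored, which was not tested. The shift of all genes depends on the scaling, with a median log2 fold change in the combination of 0.06 here, 0.26 with library size scaling and 0.25 with upper-quartile scaling, so member values are relative to that median.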

How the data were processed

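Polyadenylated RNA of C4.2B cells was sequenced for 4 arms of 3 libraries each. Per the labels and the study's methods, the authors aligned reads to hg38 with STAR and deposited HTSeq counts per gene, which were used without change; the strand setting, annotation and versions are not given in the sources used here. A deposited table of normalized values was not used. Library totals set the precision, and counting intervals (exact, 95%) cover counting error only.

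Genes passing filterByExpr (minimum count 10, minimum total 15) were scaled by TMM and tested with edgeR 4.0.16 in R 4.3.3 (quasi-likelihood, all 12 libraries in a single fit, Benjamini-Hochberg adjustment over all genes tested, threshold 0.05); scripts were tested on simulated data. RPKM used the gene lengths in the count table. Alternatives were DESeq2 1.42.0, other scalings and filters, the compared libraries alone, a replicate term and leaving out each library. Genes named in the text were those with the 6 largest and 6 smallest called fold changes per comparison and the highest of each family in DMSO; others named were chosen after their values were seen. The rule for members uses names and biotype, but the gene families and lists were proposed with earlier results of these data known. Counts without genes that were below the filter's level in every library without tazemetostat were added after the data were seen. The libraries are plates seeded together, so p-values measure only the spread between these samples, which may be technical.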

Additional observations from a re-analysis of the deposited data

Results flagged for a closer look

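The effect of ipatasertib differed between cells with and without tazemetostat for 25 of the 53 members tested, by the edgeR interaction test with adjustment over all genes tested. It was below 0 for 43.4% and above 0 for 3.77% of members, against 17.5% and 10.7% of all genes tested. Each value is the log2 effect of ipatasertib with tazemetostat minus that without. Among semaphorins it was -0.93 for SEMA3B, -0.55 for SEMA3C, -0.54 for SEMA3F, -0.63 for SEMA3G, -0.60 for SEMA4A and -0.54 for SEMA4C. Among their receptors it was -0.33 for PLXNA1, 1.19 for PLXNA2, -0.70 for PLXNA3, -0.74 for PLXNB1, -0.29 for PLXNB2, -1.24 for PLXNB3 and -0.25 for NRP1. For ephrins it was -1.47 for EFNA2, -0.79 for EFNA3, -0.56 for EFNA4, -0.74 for EFNA5 and -1.67 for EFNB3, and for EPH receptors -0.87 for EPHA10, 0.40 for EPHA3, -0.90 for EPHB2, -0.40 for EPHB3 and -0.41 for EPHB4. ROBO1 had -0.87 and UNC5A -1.00. The calls of SEMA4C, PLXNA2, NRP1 and EPHB3 were lost under at least 1 alternative. With 3 libraries an arm, no search for outlying libraries was made.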

How the results depend on the processing

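The counts of members called were recomputed under 19 alternative settings (18 for the interaction). Members lower with AKTi numbered 0 rather than 1 with library size or upper-quartile scaling, 2 when every gene with at least 1 count was tested or when only the compared libraries entered, and 0 to 2 with 1 library left out. With 1 library left out, members lower with EZH2i numbered 1 to 2, members with an interaction above 0 numbered 1 to 3, and members lower in the combination than with each single agent numbered 2 to 5. Requiring 10 counts in every library gave 9 members higher in the combination than with EZH2i, rather than 15, and 6 higher than with each single agent, rather than 12; this filter removes members that are low in DMSO. Of the calls reported, 21 of 26 with AKTi, 43 of 47 with EZH2i, 44 of 45 with the combination, 34 of 42 against AKTi, 24 of 30 against EZH2i and 21 of 25 interactions were kept under every alternative run, and no called member changed sign. Low counts limit SEMA3E, EPHA7, SLIT2, NTN4 and the members not tested.

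With the replicate letter as a block, 2 members were lower with AKTi and 2 with EZH2i, rather than 1 each, and the other counts were within 1 of those reported. Libraries of the same letter in different arms correlated by -0.058 to 0.069 in their deviations from the arm means, so the letters do not pair them.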

Other observations

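FYN, a kinase that relays semaphorin and netrin signals, averaged 2.15 CPM in DMSO, 2.13 CPM with AKTi, 2.31 CPM with EZH2i and 7.23 CPM in the combination. Its interaction value was 1.68 on the log2 scale (SE 0.35, edgeR adjusted p = 0.000296). SRGAP1, a GTPase-activating protein that acts downstream of ROBO receptors, averaged 6.80 CPM in DMSO, 6.62 CPM with AKTi, 18.97 CPM with EZH2i and 15.8 CPM in the combination. Its log2 fold change was 1.48 (SE 0.13) with EZH2i and 1.23 (SE 0.14) with the combination (edgeR adjusted p = 3.85e-12 and 3.56e-10).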
